A study of Mus musculus with 6 samples.

Results

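The stem-like and memory T cell factors described here are 9 transcription regulators, Tcf7, Lef1, Bach2, Satb1, Id2, Id3, Zeb1, Zeb2 and Myb. They were taken by gene symbol from the 13564 genes of the normalized table, and all 9 were found. The libraries came from naive CD4 T cells of C57BL/6J mice, taken from lymph nodes and activated in culture, with 3 libraries in each of the Foxo1TKO and Foxo1Ctrl groups. Foxo1TKO mice carry floxed Foxo1 alleles and a Cre driven by the Cd4 promoter, which is already active in thymocytes, so the loss is not limited to CD4 T cells. Foxo1Ctrl littermates carry the floxed alleles without Cre. Both groups also carry a Foxp3-GFP reporter. Per the labels, each culture held 50000 T cells, where the study's methods state a larger number, with 250000 splenocytes of CD3eKO mice, which lack T cells. The cultures ran for 4 days with soluble anti-CD3 at 0.1 µg per ml. The sources do not state if splenocytes were removed before RNA was extracted. Nor do the sources say whether the libraries of a genotype came from separate mice or cultures, so the p-values measure the spread between these libraries, which may be technical.

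FOXO1 is a transcription factor that T cell receptor and PI3K signals move out of the nucleus, and in resting T cells it is known for maintaining genes of homing and survival. TCF1, encoded by Tcf7, and LEF1 are HMG box proteins that bind the same DNA motif and are known for their part in naive, stem-like and memory T cells. BACH2, ID3, ZEB1 and MYB are commonly placed on the same side, whereas ID2 and ZEB2 are commonly placed with effector differentiation. These roles were described mostly in CD8 T cells, and they are given as background only.

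The promoter windows shown next hold a TCF/LEF, FOXO or AP-1 motif, and the other motifs named below were only counted. RefSeq (GRCm38.p6) gave 19 promoters for 8 of the 9 factors, each running from 250 bases before to 50 bases after a transcript start, and gave none for Zeb1. Each motif was searched on both strands. The TCF/LEF motif CTTTGA was found in 2 of the 19 promoters, 1 of Lef1 and 1 of Bach2, and in 16% of all 32851 promoters of the table. The FOXO motif GTAAACA was also found in 2 of the 19, 1 of Tcf7 and the only promoter of Myb, against 3.65% of all promoters. The AP-1 motif TGANTCA, which resembles the element bound by BACH proteins with small MAF partners, was found in 1 of the 19, belonging to Zeb2, against 7.81% of all promoters. The E box CACCTG, read by ZEB proteins and E proteins, was in 4 of the 19, against 20.2%. The short MYB motif AACNG was in 17 of the 19, against 80.3% of all promoters. Some of these promoters overlap each other, so that a match can count more than once, and a match is a description of letters and not a binding site. The windows are written 5′ to 3′ on the strand of the gene, with the motif in capitals. For Lef1 and Bach2 they are the 250 bases before a start that lies inside the annotated gene, and for Tcf7, Zeb2 and Myb they are 30 bases around each match. Both FOXO matches lay after the start, from base 2 of a Tcf7 transcript and base 34 of a Myb transcript. The AP-1 matches began 189 and 132 bases before a Zeb2 start, where annotated Zeb2 exons cover 191 of the 250 bases.
Lef1, chr3:131156044-131156293 (+): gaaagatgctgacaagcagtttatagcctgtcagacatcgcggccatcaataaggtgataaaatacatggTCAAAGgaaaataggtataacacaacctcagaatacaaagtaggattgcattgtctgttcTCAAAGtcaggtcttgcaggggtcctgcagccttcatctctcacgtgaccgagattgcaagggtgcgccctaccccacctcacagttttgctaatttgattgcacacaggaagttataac
Bach2, chr4:32417185-32417434 (+): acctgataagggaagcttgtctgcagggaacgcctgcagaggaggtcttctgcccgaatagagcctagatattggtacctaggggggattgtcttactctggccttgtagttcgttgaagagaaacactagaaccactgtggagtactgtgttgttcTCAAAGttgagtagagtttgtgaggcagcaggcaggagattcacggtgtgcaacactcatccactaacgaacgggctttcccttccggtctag
Tcf7, chr11:52282577-52282606 (-): acctttataggaGTAAACAgacccccgcca
Myb, chr10:21160935-21160964 (-): gtttgatggcatcTGTTTACagagttacac
Zeb2, chr2:45110449-45110478 (-): tccgcctagcctTGAGTCAagcagtcttac
Zeb2, chr2:45110392-45110421 (-): ggtcaggagttaTGACTCAttttgaagatg

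Library totals ran from 14783890 to 19675447 expected counts, with overlapping ranges in Foxo1Ctrl (14783890 to 18265937) and Foxo1TKO (16502065 to 19675447). Expected counts are the reads that RSEM assigned to a gene, shared out where a read fits several transcripts. Values below are normalized counts, scaled to a common library size by edgeR's TMM method, unless they are called TPM. A gene was called when its adjusted p was under 0.05 and its fold change over 1.5, by the quasi-likelihood test of edgeR, where Benjamini-Hochberg adjustment covered the 13691 genes with enough counts. Foxo1 itself had 84.7, 46.1 and 114 normalized counts in Foxo1TKO libraries 1 to 3 and 1516, 2266 and 1584 in the Foxo1Ctrl libraries, so that every library matched its label. The first principal component separated the genotypes and held 66.4% of the variance. Along the second, with 17.1%, Foxo1Ctrl 2 lay at -53.8 against 20.4 and 29.4 in the other Foxo1Ctrl libraries, and the Foxo1TKO libraries lay at 46.1, -3.52 and -38.5.

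Of the 9 factors, 6 differed between Foxo1TKO and Foxo1Ctrl. Lef1, Satb1, Bach2, Zeb1 and Id3 were lower in Foxo1TKO, from 3.47-fold for Lef1 to 1.54-fold for Id3, and Zeb2 was 13.9-fold higher. Tcf7, Id2 and Myb did not pass the test. By DESeq2's Wald test, which the study used, 7 factors, with Tcf7 added, and 3694 of all genes were called. All 9 passed the filter on low counts. Of all genes tested, 3144 (23.0%) were called, with 11.8% lower and 11.1% higher, so that the factors' 5 lower and 1 higher stand beside those shares. Without Foxo1TKO 2, 3 of the 9 factors (Lef1, Satb1 and Zeb2) and 1590 of all genes were called. The median log2 fold change was -0.72 over the 9 factors and 0.01 over all genes. The libraries of the genotypes did not overlap for the same 6 factors, and this held for 42.7% of all genes, with Foxo1TKO below in 21.2% and above in 21.5%. In bulk RNA, fewer cells that express a gene and less RNA per cell cannot be told apart.

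**Figure D1:**
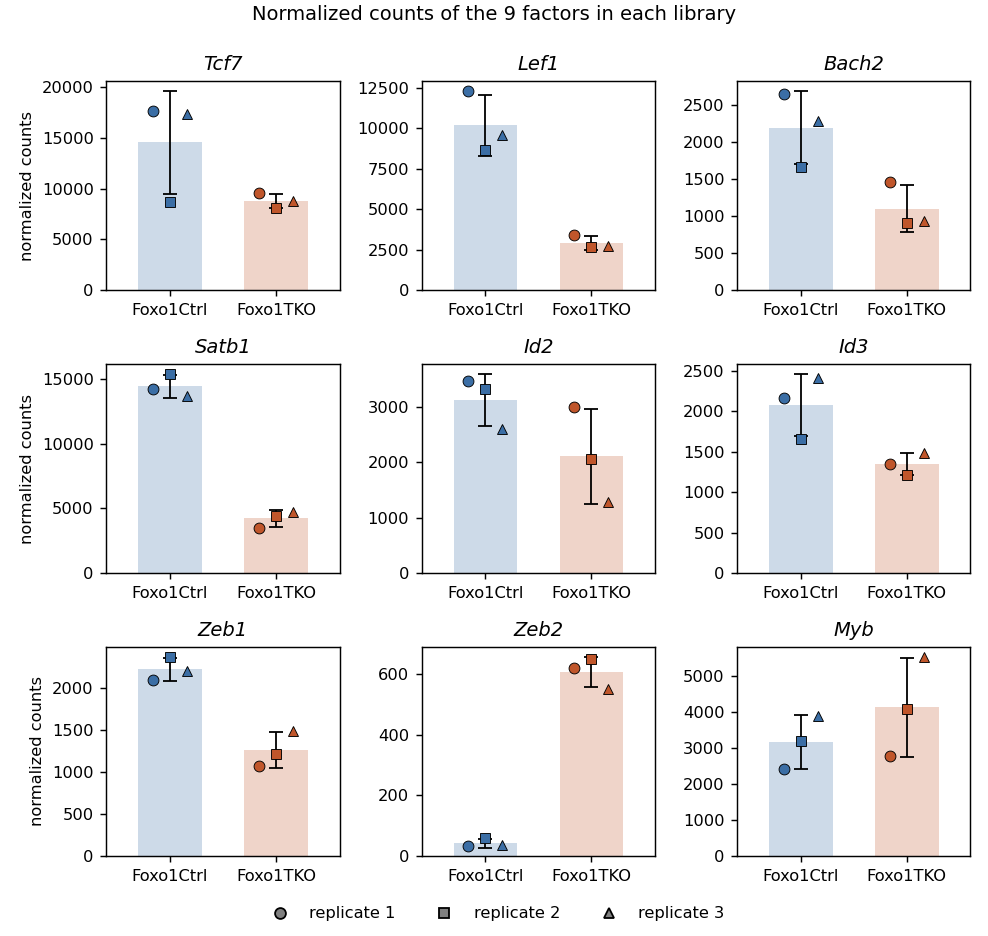
Normalized counts (y axis, linear from 0, own scale in each panel) of the 9 factors in the 3 Foxo1Ctrl and 3 Foxo1TKO libraries. Points are libraries with the replicate number as symbol, bars are means and error bars are SD, and the genotypes overlap for Tcf7, Id2 and Myb only.

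Lef1 fell the most of the pair of TCF/LEF genes, and its genotypes lay far apart. Lef1 (ENSMUSG00000027985, GRCm38 chr3:131110471-131224356, plus strand) had 3434, 2669 and 2706 normalized counts in Foxo1TKO 1 to 3 and 12288, 8662 and 9589 in Foxo1Ctrl 1 to 3. Its highest Foxo1TKO library held fewer counts than its lowest Foxo1Ctrl library. The means were 2936 ± 431 and 10180 ± 1883 (SD, n = 3 each), with a log2 fold change of -1.79 (SE 0.19, 95% interval -2.23 to -1.35, adjusted p = 0.000639, edgeR's quasi-likelihood test, Benjamini-Hochberg). A log2 fold change at or below that of Satb1 or Lef1 was seen in 4.71% of all genes. Its call held without any 1 library, with log2 fold changes from -1.92 to -1.66. The antisense gene Gm43352 overlaps Lef1 exons and had 115 ± 42.6 and 398 ± 149 normalized counts (SD, n = 3 each). Whether counting used the strand is not given in the sources used here, so that a part of these reads cannot be told apart.

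Tcf7 (ENSMUSG00000000782, GRCm38 chr11:52252371-52283014, minus strand) had the highest mean level per length of the 9 factors in both genotypes and gave no call. It had 9525, 8117 and 8766 normalized counts in the Foxo1TKO libraries and 17574, 8716 and 17333 in the Foxo1Ctrl libraries. The Foxo1Ctrl libraries 1 and 3 lay well above every Foxo1TKO library, but Foxo1Ctrl 2 lay among them. The means were 8803 ± 705 and 14541 ± 5046 (SD, n = 3 each), the log2 fold change was -0.72 (SE 0.27, 95% interval -1.34 to -0.11), and the adjusted p was 0.0864 (edgeR's quasi-likelihood test, Benjamini-Hochberg). This depended on a single library and on the test. Without Foxo1Ctrl 2 the log2 fold change was -0.98 and edgeR's adjusted p was 0.00279. DESeq2's Wald test, which the study used, gave -0.71 on all 6 libraries with an adjusted p of 0.0454, a call. Over the fits without 1 library, the adjusted p of Tcf7 ran up to 0.253 in edgeR.

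The ratio of the 2 transcripts put the difference within each library, where library size cancels. In TPM, a transcript share corrected for length, Tcf7 stood at 2.82, 3.01 and 3.14 times Lef1 in the Foxo1TKO libraries and at 1.41, 0.943 and 1.8 times in the Foxo1Ctrl libraries. The lowest Foxo1TKO ratio was above the highest Foxo1Ctrl ratio. The mean log2 ratio was 1.58 ± 0.08 against 0.42 ± 0.47 (SD, n = 3 each), a difference of 1.16 with an exact two-sided permutation p of 0.1, the smallest that 3 against 3 libraries can give.

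Partners of TCF1 and LEF1 were called at a share near that of all genes, 23.0%. Of 20 genes for catenin, Groucho-type corepressors and the catenin destruction complex, 16 had enough counts, 1 was called higher, 2 were called lower, and the median log2 fold change was -0.37. Ctnnbip1, an inhibitor of the binding of catenin to TCF proteins, rose from 76.6 ± 23.3 to 201 ± 80.8 normalized counts (SD, n = 3 each). Bcl9l, a coactivator that binds beta-catenin, fell from 50.2 ± 5.67 to 16.4 ± 4.05 (SD, n = 3 each), and Apc, a scaffold of the destruction complex, fell from 476 ± 22.2 to 305 ± 3.13 (SD, n = 3 each). Pygo1 was at 0 in all 6 libraries. Without Foxo1TKO 2, Foxo1TKO 3, Foxo1Ctrl 1 or Foxo1Ctrl 3, 1 gene of the list was called.

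Satb1 fell by nearly the same factor as Lef1. SATB1 is a chromatin organizer that folds gene loci in thymocytes and T cells. Satb1 (ENSMUSG00000023927, GRCm38 chr17:51736187-51833290, minus strand) had 3506, 4440 and 4743 normalized counts in the Foxo1TKO libraries and 14172, 15371 and 13662 in the Foxo1Ctrl libraries. The genotypes were far apart, and the Foxo1Ctrl libraries lay close together. The means were 4230 ± 645 and 14402 ± 877 (SD, n = 3 each), with a log2 fold change of -1.77 (SE 0.16, 95% interval -2.15 to -1.39, adjusted p = 0.000357, edgeR's quasi-likelihood test, Benjamini-Hochberg). Leaving out 1 library gave -1.85 to -1.65, with the call made each time. Small genes that overlap Satb1 exons, antisense Gm6934 and same-strand Gm36931, held at most 82 and 51 counts in any library.

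Bach2, a repressor that competes at AP-1 sites and restrains effector genes, was 1.99-fold lower. Bach2 (ENSMUSG00000040270, GRCm38 chr4:32238804-32586108, plus strand) had 1468, 904 and 932 normalized counts in the Foxo1TKO libraries and 2643, 1667 and 2279 in the Foxo1Ctrl libraries. The genotypes did not overlap, but Foxo1TKO 1 and Foxo1Ctrl 2 came close to each other. The means were 1101 ± 318 and 2196 ± 493 (SD, n = 3 each), with a log2 fold change of -0.99 (SE 0.25, 95% interval -1.57 to -0.42, adjusted p = 0.0241, edgeR's quasi-likelihood test, Benjamini-Hochberg). The call was lost without Foxo1TKO 2, Foxo1TKO 3, Foxo1Ctrl 1 or Foxo1Ctrl 3, where edgeR's adjusted p was 0.108, 0.0874, 0.0767 and 0.0711. It was also lost when the fit took account of transcript length (edgeR, adjusted p = 0.0818) and in the normalized table (limma, adjusted p = 0.0655). The antisense gene Bach2os had 12.8 ± 1.09 and 40.1 ± 1.6 normalized counts (SD, n = 3 each). Among 7 relatives and small MAF partners, all tested, only Nfe2, a relative of the BACH proteins that acts in the erythroid and platelet lineages, was called, rising from 11.6 ± 9.1 to 56.3 ± 8.59 (SD, n = 3 each). That call was lost without Foxo1TKO 2 or Foxo1Ctrl 1.

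**Figure D2:**
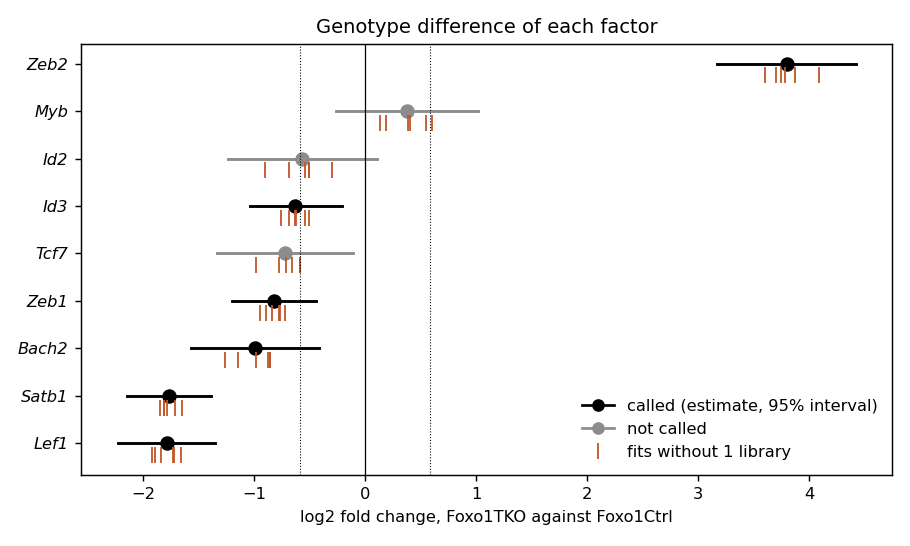
Log2 fold change of each factor, Foxo1TKO against Foxo1Ctrl (x axis), with the 95% interval of edgeR's fit on 6 libraries, black where called and grey where not, and the estimates without each library as short ticks. Dotted lines mark a fold of 1.5. Lef1, Satb1, Zeb2, Bach2 and Zeb1 lie beyond them in every fit shown, and Tcf7 comes up to the line, at -0.59. Where a fit without 1 library lost the call of Bach2 or Zeb1, it was the adjusted p that failed.

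The ZEB pair split, with Zeb2 rising and Zeb1 falling. ZEB1 and ZEB2 are zinc finger proteins that bind E boxes and mostly repress. Zeb2 (ENSMUSG00000026872, GRCm38 chr2:44983632-45117395, minus strand) had 619, 650.0 and 551 normalized counts in the Foxo1TKO libraries and 31.9, 59 and 37.5 in the Foxo1Ctrl libraries. Every Foxo1TKO library was far above every Foxo1Ctrl library. The means were 607 ± 50.4 and 42.8 ± 14.3 (SD, n = 3 each), with a log2 fold change of 3.80 (SE 0.27, 95% interval 3.17 to 4.42, adjusted p = 0.000128, edgeR's quasi-likelihood test, Benjamini-Hochberg). Only 1.04% of all genes had a log2 fold change as high. Leaving out 1 library gave 3.6 to 4.09, with the call made each time. When the fit took account of transcript length, the log2 fold change was 3.56, also called. The antisense gene Zeb2os had 9.39 ± 3.09 normalized counts in Foxo1TKO (SD, n = 3) and 0 in each Foxo1Ctrl library.

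Zeb2 is also known in myeloid, NK and B lineage cells, which the splenocytes in the culture hold. Of the 8 macrophage markers, only Cd68 had enough counts (69 ± 12.4 and 40.9 ± 5.43 normalized counts in Foxo1TKO and Foxo1Ctrl, SD, n = 3 each, not called), and Mertk and C1qa were at 0 in all libraries. The summed macrophage markers were 4.39 to 5.84 TPM in Foxo1TKO and 2.41 to 3.4 TPM in Foxo1Ctrl. The summed 7 dendritic cell markers were 10.4 to 11 TPM and 2.11 to 4.43 TPM. Itgax, which encodes CD11c and is also found on activated T cells, made up most of the former, with 412 ± 67.1 and 0.714 ± 0.629 normalized counts (SD, n = 3 each), and it was called higher. The other tested dendritic cell markers were not called, Zbtb46 with 127 ± 8.03 and 177 ± 57.1 normalized counts and Xcr1 with 46.9 ± 25.6 and 34.4 ± 14.1 (SD, n = 3 each). The remaining 4, Flt3, Clec9a, Siglech and Batf3, were too low to test. The summed 5 neutrophil markers were 0.28 to 5.39 TPM in Foxo1TKO and at most 0.09 TPM in Foxo1Ctrl, and none had enough counts. The summed markers of B cells and NK cells moved the other way. They were 7.54 to 11.2 TPM against 24.5 to 32.1 TPM for 10 B cell genes. For 5 NK cell genes they were 54.9 to 103 TPM against 336 to 444 TPM. Of these, 4 of 8 tested B cell genes and 1 of 3 tested NK cell genes, Klrd1, were called lower. Klrd1, which is also found on activated T cells, made up most of the NK cell sum, with mean TPM of 77.1 in Foxo1TKO and 384 in Foxo1Ctrl. The 2 other tested NK cell genes were not called. What part such cells had in the Zeb2 counts was not tested.

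Zeb1 (ENSMUSG00000024238, GRCm38 chr18:5591860-5775467, plus strand) had 1069, 1212 and 1489 normalized counts in the Foxo1TKO libraries and 2093, 2368 and 2197 in the Foxo1Ctrl libraries. All 3 Foxo1TKO libraries lay below the Foxo1Ctrl libraries. The means were 1257 ± 213 and 2219 ± 139 (SD, n = 3 each), with a log2 fold change of -0.82 (SE 0.17, 95% interval -1.20 to -0.44, adjusted p = 0.00998, edgeR's quasi-likelihood test, Benjamini-Hochberg). Without Foxo1TKO 2 the call was lost, with a log2 fold change of -0.78 and an adjusted p of 0.0632 in edgeR.

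Per length, Zeb1 transcripts outnumbered Zeb2 transcripts in every library, but by very different margins. The TPM ratio of Zeb1 to Zeb2 was 2.08, 2.05 and 2.94 in the Foxo1TKO libraries and 53.4, 50.9 and 57.9 in the Foxo1Ctrl libraries. The mean log2 ratio was 1.22 ± 0.30 against 5.75 ± 0.09 (SD, n = 3 each), a difference of -4.54 with an exact two-sided permutation p of 0.1, again the smallest possible. The fall of Zeb1 and the rise of Zeb2 both narrowed this margin. The Foxo1Ctrl ratios rest on few Zeb2 reads, as few as 27 in a library, and their small spread depends on the estimated transcript lengths. Taken per length from the normalized table, they were 41.2, 60.2 and 53.6, with a mean log2 ratio of 5.67 ± 0.28 (SD, n = 3). The difference between the genotypes was then -4.38.

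ID2 and ID3 lack a DNA-binding region and hold E proteins away from DNA. Id3 (ENSMUSG00000007872, GRCm38 chr4:136143497-136145755, plus strand) had 1354, 1209 and 1483 normalized counts in the Foxo1TKO libraries and 2165, 1663 and 2413 in the Foxo1Ctrl libraries. The genotypes did not overlap, with Foxo1Ctrl 2 again the lowest of its group. The means were 1349 ± 137 and 2080 ± 382 (SD, n = 3 each), with a log2 fold change of -0.63 (SE 0.18, 95% interval -1.04 to -0.21, adjusted p = 0.0388, edgeR's quasi-likelihood test, Benjamini-Hochberg). Without each library other than Foxo1Ctrl 2, this call was lost. In edgeR the adjusted p was 0.082, 0.172 and 0.0738 without Foxo1TKO 1, 2 and 3, and 0.101 and 0.128 without Foxo1Ctrl 1 and 3.

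Id2 (ENSMUSG00000020644, GRCm38 chr12:25093799-25097140, minus strand) had 2990, 2067 and 1276 normalized counts in the Foxo1TKO libraries and 3467, 3319 and 2592 in the Foxo1Ctrl libraries. Foxo1TKO 1 reached into the Foxo1Ctrl range, and the Foxo1TKO libraries differed among themselves more than those of any other factor, with a coefficient of variation of 40.6%. The means were 2111 ± 858 and 3126 ± 468 (SD, n = 3 each), with a log2 fold change of -0.57 (SE 0.29, 95% interval -1.24 to 0.11, adjusted p = 0.206, edgeR's quasi-likelihood test, Benjamini-Hochberg). Without Foxo1TKO 1 it was called, at -0.90 with an adjusted p of 0.0485 in edgeR.

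The TPM ratio of Id3 to Id2 was 0.439, 0.56 and 1.13 in the Foxo1TKO libraries and 0.614, 0.488 and 0.894 in the Foxo1Ctrl libraries. The genotypes overlapped fully. The difference of the mean log2 ratios was 0.02 (exact two-sided permutation p = 1), and its sign changed when single libraries were left out. Of the E proteins and other Id genes, 3 of 5 had enough counts and none was called, and Id4 was at 0 in all 6 libraries. The closest was Tcf12, an E protein, with a log2 fold change of -0.56 and an adjusted p of 0.0381 by edgeR's quasi-likelihood test (Benjamini-Hochberg), which did not reach the fold of 1.5.

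**Figure D3:**
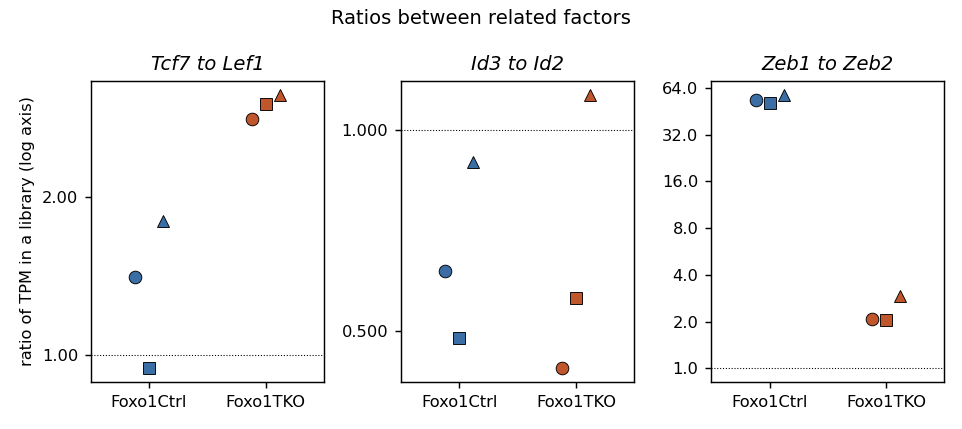
Ratio of TPM between related factors within each library (y axis, log scale, own range in each panel), with the 3 Foxo1Ctrl libraries in blue, the 3 Foxo1TKO libraries in red, and symbols for replicates 1 (circle), 2 (square) and 3 (triangle). The dotted line marks equal levels, and the genotypes overlap for Id3 to Id2 only.

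MYB is a DNA-binding activator of lymphoid progenitors and of T cell survival. Myb (ENSMUSG00000019982, GRCm38 chr10:21124935-21160984, minus strand) had 2775, 4085 and 5534 normalized counts in the Foxo1TKO libraries and 2405, 3198 and 3893 in the Foxo1Ctrl libraries. The genotypes overlapped. The means were 4131 ± 1380 and 3165 ± 745 (SD, n = 3 each), with a log2 fold change of 0.38 (SE 0.28, 95% interval -0.26 to 1.02, adjusted p = 0.362, edgeR's quasi-likelihood test, Benjamini-Hochberg). Within each genotype the library with the most Id2 had the least Myb, and the library with the least Id2 had the most Myb. With 3 libraries a genotype, this is an order of values and was not tested. Leaving out 1 library moved the log2 fold change of Myb from 0.13 to 0.60, without a call.

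Among 9 relatives and cofactors of SATB, ZEB and MYB proteins, 7 were tested, 3 were called higher and 2 lower, beside 11.1% and 11.8% of all genes. Hdac2 and Hdac1, histone deacetylases, rose from 259 ± 78.8 to 684 ± 238 and from 4023 ± 655 to 7714 ± 1348 normalized counts (SD, n = 3 each). Ctbp1, a corepressor that ZEB proteins recruit, rose from 548 ± 72.5 to 853 ± 49.1 (SD, n = 3 each). Crebbp and Ep300, acetyltransferases that MYB recruits, fell from 9754 ± 1773 to 5516 ± 1261 and from 437 ± 109 to 254 ± 36.9 (SD, n = 3 each). Without Foxo1TKO 1, 2 or 3 or without Foxo1Ctrl 1 or 3, only 1 or 2 genes of this list were called.

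Per length, the factors spanned a wide range in both genotypes, with Tcf7 at the top by mean. In Foxo1Ctrl, mean TPM was 425 ± 179 for Tcf7, 313 ± 16 for Satb1, 299.6 ± 73.5 for Lef1, 189 ± 29.3 for Id2 and 125 ± 34.7 for Id3 (SD, n = 3). Myb (64.7 ± 16.7 TPM), Zeb1 (56.3 ± 2.24), Bach2 (24.8 ± 9.21) and Zeb2 (1.04 ± 0.0577) followed (SD, n = 3). Library ranges overlapped between Tcf7 and Satb1, between Satb1 and Lef1, and between Myb and Zeb1, so those neighbours are not ordered. In Foxo1TKO, mean TPM was 261 ± 41.1 for Tcf7, 137 ± 66.3 for Id2, 94.7 ± 7.27 for Satb1, 88.1 ± 18.7 for Lef1, 86.7 ± 23 for Myb and 82.5 ± 9.01 for Id3 (SD, n = 3). Zeb1 (30.8 ± 5.71 TPM), Zeb2 (13.1 ± 0.611) and Bach2 (12.8 ± 7.42) came last (SD, n = 3). The 5 factors from Id2 to Id3 each overlapped the next, as did Zeb2 and Bach2, while Tcf7 lay above and Zeb1 below the overlapping 5. Zeb2 thus stood below Bach2 in every Foxo1Ctrl library and overlapped it in Foxo1TKO. TPM were also ranked among all tested genes in each library, and the percentiles averaged by genotype. The mean percentile of Zeb2 moved from 15.7 in Foxo1Ctrl to 56.2 in Foxo1TKO, and that of Lef1 from 95.7 to 86.5.

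**Figure D4:**
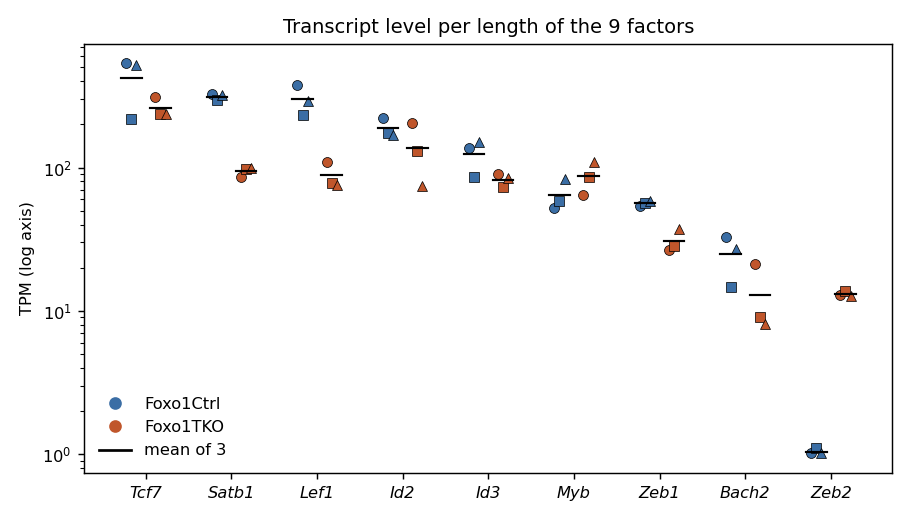
TPM of the 9 factors (y axis, log scale) in each library, ordered by the Foxo1Ctrl mean, with Foxo1Ctrl in blue, Foxo1TKO in red, a line at the mean of 3 libraries, and symbols for replicates 1 (circle), 2 (square) and 3 (triangle). Zeb2 lies near 1.04 TPM in Foxo1Ctrl and near 13.1 TPM in Foxo1TKO, where its libraries overlap those of Bach2.

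The mean transcript length that RSEM estimated for each factor moves when the mix of its transcripts moves, and it overlapped between genotypes for all 9. The largest difference was in Zeb2, with 3710, 3281 and 2864 bases in the Foxo1TKO libraries and 2349, 3194 and 2711 bases in the Foxo1Ctrl libraries (19.4% longer in Foxo1TKO, exact two-sided permutation p = 0.2). Few reads stood behind the Foxo1Ctrl lengths, since Zeb2 had as few as 27 counts there. Bach2 varied between 5228 and 7348 bases within Foxo1TKO alone, and its TPM moves with that estimate. Over the 9 comparisons the adjusted p was 0.9 to 1 (exact permutation tests with Benjamini-Hochberg adjustment). Of the tested genes with more than 1 transcript, 13% had lengths that did not overlap between the genotypes.

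The genes whose pattern over the 6 libraries was most like each factor were taken by Pearson's r of log2 normalized counts, among 9212 genes that averaged 100 normalized counts or more. The genotypes form separate clusters, and a gene that changed can reach a high r from that alone, so r is given as a description only. For Lef1 they were Thap3, Stk38 and Socs3 (r from 0.9976 to 0.9973), and for Satb1 they were 4930523C07Rik, Ccdc125 and Fam189b (0.9995 to 0.9991). For Zeb2 they were Tnfsf10, which encodes the death ligand TRAIL, Srgap3 and Snrpd1 (0.9988 to 0.9980), with log2 fold changes of 2.07, 2.10 and 1.16. Bach2 was closest to Nup210, Rasa3 and Tnrc6c (0.9994 to 0.9967), Zeb1 to Map3k12, Gm16152 and A930002I21Rik (0.9980 to 0.9963), and Id3 to Cep192, Rere and Zfp395 (0.9873 to 0.9834). For the factors without a call, the closest were Tcn2, Bet1l and Syt11 for Tcf7 (0.9986 to 0.9940), Lrrfip1, Parp10 and Rbm12b1 for Id2 (0.9722 to 0.9642), and Twistnb, Gm45731 and Bag5 for Myb (0.9829 to 0.9805). Within Foxo1Ctrl, library 2 was the lowest for Tcf7, Lef1, Bach2 and Id3, and it was the library that lay apart on the second principal component. Within Foxo1TKO, library 1 was the highest for Tcf7, Lef1, Bach2 and Id2 and the lowest for Satb1, Zeb1 and Myb.

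Most genes of the naive, stem-like and memory state that were called were lower in Foxo1TKO. Of 20 such genes, all tested, 11 were called lower and 3 higher, beside 11.8% and 11.1% of all genes, with a median log2 fold change of -1.27 against 0.01 over all genes. Klf2, a transcription factor of resting T cells, had 2.54 ± 3.01 normalized counts in Foxo1TKO and 648 ± 12.2 in Foxo1Ctrl (SD, n = 3 each). Socs3, an inhibitor of cytokine signals, S1pr1, the receptor for exit from lymph nodes, and Il6ra, a receptor chain for a cytokine, had log2 fold changes of -5.36, -4.97 and -4.53. Il7r, a survival receptor of naive T cells, was also lower, with 764 ± 118 and 8574 ± 2780 normalized counts (SD, n = 3 each). The 3 that rose were Xcl1, a chemokine, from 7.94 ± 2.16 to 1728 ± 444 normalized counts, Eomes, a T-box factor, from 264 ± 70.9 to 1270 ± 56.9, and Bcl6, a repressor that drives the follicular helper lineage, from 542 ± 237 to 1623 ± 178 (SD, n = 3 each).

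Genes of effector cells were called in both directions. Of 20, 18 were tested, 3 were called higher and 6 lower, beside 11.1% and 11.8% of all genes, with a median log2 fold change of -0.16. Prdm1, the effector regulator that BACH2 is known to repress, fell from 66.9 ± 13.3 to 2.96 ± 2.6 normalized counts (SD, n = 3 each). Gzmb, a cytotoxic protease, and Batf and Runx3, transcription factors, fell with log2 fold changes of -2.41, -1.25 and -1.21. Rora and Tox, nuclear factors, rose by 2.53 and 1.80 on the log2 scale. Tox was counted in this list, but the study describes it as critical for exhaustion and mostly not needed to form effector cells. Cx3cr1, a receptor of late effector cells that is also found on myeloid cells, rose from 1.28 ± 2.22 to 16.3 ± 5.78 normalized counts (SD, n = 3 each).

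**Figure D5:**
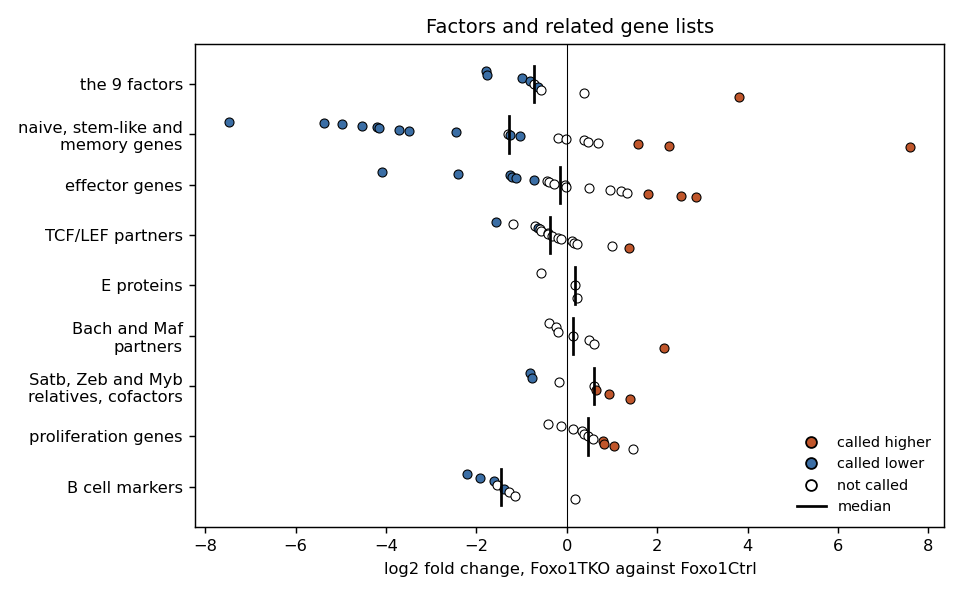
Log2 fold change, Foxo1TKO against Foxo1Ctrl (x axis), of the tested genes among the 9 factors and 8 lists (y axis), each point a gene, red where called higher, blue where called lower and white where not called, with a bar at the list's median. The naive, stem-like and memory genes have the lowest median but one, -1.27, against -0.72 for the 9 factors.

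Dividing cells and cell types were read beside the factors. Of 11 proliferation genes, 3 were called higher (Cdk1, Pcna and Top2a) and none lower, beside 11.1% and 11.8% of all genes. The summed TPM of the 11 was 468 to 617 in Foxo1TKO and 344 to 457 in Foxo1Ctrl. Pcna made up the largest part of this sum, with mean TPM of 259 in Foxo1TKO and 139 in Foxo1Ctrl. Without Foxo1TKO 2 or 3 or Foxo1Ctrl 1 or 3, none of the 11 was called, and without Foxo1TKO 1, 1 was. By dye dilution in cultures of this kind, the study found that T cells without Foxo1 divided markedly less. That is a measure of division, which these transcript levels are not. The 10 T cell genes summed to 9027 to 9806 TPM in Foxo1TKO and 10944 to 11051 TPM in Foxo1Ctrl, with Cd28 lower and 9 not called, and Cd4 was present in both genotypes at 4592 ± 2736 and 5654 ± 3009 normalized counts (SD, n = 3 each). Foxp3, which defines regulatory T cells, had 10.4 ± 4.21 and 20.9 ± 5.96 normalized counts (SD, n = 3 each), and of 5 regulatory T cell genes Ctla4 and Nrp1 were lower. The 4 plasma cell genes summed to 22.1 to 53 TPM and 99.7 to 120.0 TPM, with Jchain and Mzb1 lower. Of the CD8 markers, Cd8b1 was tested and not called. Of 5 erythroid genes, 3 were tested and none was called. The part of these cells in the differences of the 9 factors was not tested.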

How the data were processed

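Expected counts, TPM and FPKM per gene were deposited for each of 6 libraries, made by the authors with STAR 2.7.6a and RSEM 1.3.1 on GRCm38 per the labels. A deposited normalized table, in signal units, was matched within 1% by the rounded counts divided by DESeq2's size factor and the relative effective length. Trimming and strand settings are not given in the sources used here. RSEM shares reads between similar transcripts, so overlapping genes remain uncertain.

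Expected counts were rounded and fitted in edgeR 4.0.16 (R 4.3.3), with TMM scaling, genes kept at 10 or more counts in 3 or more libraries (13691 of 55487, holding at least 99.9% of the counts), a prior count of 1 and genotype as the only term. The procedure was tested on simulated data. Benjamini-Hochberg adjustment covered all genes tested. Ratios and lengths were compared by exact permutation tests in scipy 1.17.1. Alternatives were other scalings and filters, DESeq2 1.42.0, limma 3.58.1 (voom, and log2 of the normalized value plus 1), length offsets, a replicate block and leaving out each library. TPM were used for levels between genes, and FPKM for the same order as an alternative. Positions came from GENCODE M21 and promoters from RefSeq, both on GRCm38.

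The factors and the 17 gene lists were chosen with earlier results of these data known. The genes named are all 9 factors and Foxo1, up to 4 called genes per direction with the largest change from each list of partners and states, marker genes with the highest TPM or at 0 in all libraries, and the 3 closest patterns per factor. Tcf12, Il7r, Flt3, Clec9a, Siglech, Batf3, Zbtb46, Xcr1, Foxp3, Nrp1, Cd28, Mzb1, Cd4 and Cd8b1, where outside that rule, were named after their values were seen. Some genes of the lists are not reported here by name. Depth of 14783890 to 19675447 counts gives small counting error for the 9 factors, except for Zeb2 in Foxo1Ctrl. Other genes named had few counts in a genotype, among them Klf2 and Prdm1 in Foxo1TKO and Cx3cr1 and Itgax in Foxo1Ctrl.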

Additional observations from a re-analysis of the deposited data

How the results depend on the processing

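Over the alternatives to the edgeR fit on 6 libraries, no factor changed direction, and Lef1, Satb1 and Zeb2 were called in all. Tcf7 became called with DESeq2 (-0.71) and without Foxo1Ctrl 2, with log2 fold changes of -0.98 to -0.59 over the fits without 1 library. Bach2 lost its call with length offsets (-1.01), in the normalized table with limma (-1.07) and in 4 of the 6 fits without 1 library, which together ran from -1.26 (call kept) to -0.86 (call lost). The fits without 1 library gave -0.76 to -0.51 for Id3 (called in 1 of 6), -0.95 to -0.72 for Zeb1 (called in 5 of 6) and -0.90 to -0.30 for Id2 (called in 1 of 6). They made 1590 (without Foxo1TKO 2) to 3165 calls over all genes, 3144 with all libraries, and 3 to 7 of the 9 factors were called. The log2 difference of the Id3 to Id2 ratio turned to -0.38 without Foxo1TKO 3, -0.02 without Foxo1Ctrl 1 and -0.18 without Foxo1Ctrl 2, within a range of -0.38 to 0.31 over the fits without 1 library. The causes were not tested, other than that these fits have fewer libraries. Of all 364 comparisons with an alternative, lists and transcript lengths included, 327 were counted as unchanged. For fold changes and ratios this meant the same direction and, for calls, the same side of the threshold. For counts it meant a value within 1.5 times. Length differences were counted as unchanged even where their sign turned, as for Bach2, from 348 bases to -90.1 without Foxo1TKO 3.

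The libraries share replicate numbers, and their deviations from the group means correlated at 0.432, 0.198 and -0.109 for numbers 1, 2 and 3. Foxo1TKO 1 and 2 correlated best with the Foxo1Ctrl library of the same number, but Foxo1TKO 3 with Foxo1Ctrl 2 (0.301). This does not settle whether the numbers mark pairs, and the main fit did not pair them. With the replicate number as a block, edgeR called 3318 genes and the same count of 6 factors.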
